A study of Mus musculus with 27 samples.

Results

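Antimicrobial genes of Paneth cells, namely Lyz1, Itln1, Ang4, Pla2g2a and Mmp7, were followed through intestinal adenomas of mice with an activated Braf gene, with or without the transcription factor gene Fosl1, or with a Fosl1 transgene. They were taken by gene symbol, each with 1 row in each of 2 deposited tables, so they are 5 of 17440 genes in the table with the transgene and 5 of 15176 in the table with the knockout. All 5 passed the filter on low values in both tables. Paneth cells are secretory cells at the base of small intestinal crypts. They store antimicrobial proteins in granules, release them into the crypt, and give signals to the neighbouring stem cells. Wnt signalling is known to drive their differentiation, and they are sparse in the normal colon.

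The genes have different roles in the granule. Lyz1 encodes the lysozyme of Paneth cells, an enzyme that cuts the peptidoglycan of bacterial walls. Itln1 encodes intelectin 1, a lectin that binds microbial sugars. Ang4 encodes angiogenin 4, a ribonuclease that kills bacteria. Pla2g2a encodes a secreted phospholipase A2 that attacks bacterial membranes. C57BL/6 mice are known to carry an inactivating frameshift in Pla2g2a, a locus known as a modifier of intestinal tumours, and the annotation lists the gene as a polymorphic pseudogene. The labels used here give no strain. Mmp7 encodes matrilysin, the protease that activates alpha-defensins in mouse Paneth cells and is also known from tumour epithelium.

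RNA came from intestinal epithelium or tumours, and the gut region and the age at collection were not given in the sources used here. Braf mice (BrafV637E/+;Vil-CreERT2/+) carry an inducible V637E allele, the mouse counterpart of human V600E, and a tamoxifen-activated Cre that the villin promoter drives in intestinal epithelium. Knockout mice add Fosl1lox/lox, so that Cre also deletes Fosl1, and transgene mice are Tet-o-Fosl1;Vil-CreERT2/+, labelled FTg-ON, without the Braf allele in the genotype given. Per the protocol, mice received 5 mg of tamoxifen by gavage on 2 days at 6 weeks of age, and transgene mice had doxycycline at 2000 mg/kg of chow from 1 week later. Controls were Braf mice given the oil alone, so they carry the alleles without the induction. The labels name no transactivator for the transgene and give doxycycline to no other group, so the drug and the transgene cannot be told apart. Transgene libraries were compared with 3 control and 3 Braf libraries of their own table, and 6 knockout libraries with another 6 control and 5 Braf libraries. Each library is 1 mouse by its title.

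Fosl1 itself was listed at 0 CPM in the 3 control libraries, at 4.15, 4.27 and 5.31 CPM in the Braf libraries, and at 3.62, 3.70 and 3.30 CPM in the transgene libraries. It was thus detected in both adenoma groups and no higher with the transgene. Fosl1 was not analysed here in the knockout table. Depth per library, to 3 digits, was 12400000 to 15500000 reads in the transgene table and an estimated 3840000 to 7180000 reads in the knockout table. Within a group, the correlation of log2 values between libraries was 0.904 to 0.986. The labels name 2 library kits without saying which library had which, so the kit cannot be told apart from the groups. Levels are CPM, reads scaled to a common library total, in the transgene table. Levels of the knockout table are nCPM, which are the deposited normalised counts times 1 factor that puts their mean column total on that of CPM. Differences are between group means of log2(value + 1), with 95% intervals and p-values from limma, adjusted by Benjamini-Hochberg over all genes of the table. A gene was called below 0.05. Folds are ratios of mean levels. In such bulk RNA, fewer cells of a type and less RNA per cell cannot be told apart.

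The genes lie on 5 chromosomes of GRCm38 in GENCODE M21. Lyz1 is at chr10:117287797-117292868 on the minus strand, next to its macrophage counterpart Lyz2 at chr10:117277331-117282321 on the same strand. Itln1 is at chr1:171518122-171535294 on the minus strand and Ang4 at chr14:51763878-51773590 on the minus strand. Pla2g2a is at chr4:138831857-138835186 and Mmp7 at chr9:7692090-7699585, both on the plus strand.

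Promoter windows were read because Fosl1 encodes a subunit of AP-1, which is known to bind the letters TGANTCA. The windows run from 250 bases before to 50 bases after a gene's start (RefSeq, GRCm38.p6) and were found for Lyz1, Itln1, Ang4 and Mmp7. Searched on both strands, TGANTCA occurred in a window of Mmp7, at -63 to -57 from the start, and in that of Ang4, at -122 to -116. The other Mmp7 window, chr9:7692091-7692390, belongs to another listed start and holds no TGANTCA. The letters occurred in 2565 of 32851 such windows, or 7.81%. The 2 windows that hold it are shown with the match in capitals.
Mmp7, chr9:7691840-7692139, plus strand: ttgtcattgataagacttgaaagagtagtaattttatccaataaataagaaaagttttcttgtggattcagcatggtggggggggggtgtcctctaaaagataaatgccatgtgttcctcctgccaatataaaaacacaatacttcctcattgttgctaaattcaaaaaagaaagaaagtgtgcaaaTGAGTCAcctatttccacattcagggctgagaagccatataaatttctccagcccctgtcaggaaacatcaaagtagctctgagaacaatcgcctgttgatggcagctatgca
Ang4, chr14:51773541-51773840, minus strand: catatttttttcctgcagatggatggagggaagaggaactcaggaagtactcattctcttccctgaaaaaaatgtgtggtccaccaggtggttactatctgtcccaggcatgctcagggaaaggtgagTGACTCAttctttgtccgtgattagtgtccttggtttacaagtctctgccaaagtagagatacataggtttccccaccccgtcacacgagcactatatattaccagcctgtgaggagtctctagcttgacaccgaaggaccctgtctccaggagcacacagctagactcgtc
Of the 2 genes with these letters, Mmp7 was higher and Ang4 lower in Braf adenomas than in controls, with the values below. The part of AP-1 in either was not tested. The windows of Lyz1 and Itln1 hold no TGANTCA. The Mmp7 window shown also holds a word that TCF/LEF factors of the Wnt pathway are known to bind. It is CTTTG followed by A or T at both of the next places, on the minus strand at 4 to 10. The other Mmp7 window overlaps this one and holds the same site, which lies at -247 to -241 from its own start. That word occurred on either strand in 16.9% of all windows. These matches are letters in a window, not measured binding.

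In control epithelium the 5 genes fell into 2 tiers of level. Per kilobase of exon, mean levels in the transgene table were 252 CPM for Lyz1, 205 for Itln1, 16.7 for Ang4, 10.2 for Pla2g2a and 9.70 for Mmp7. The libraries of Lyz1 and Itln1 overlapped per kilobase, as did those of Ang4, Pla2g2a and Mmp7, and the lowest library of Itln1 (115) was above the highest of Ang4 (22.7). The knockout table had the same order of means, at 187, 175, 19.1, 8.76 and 7.90 nCPM per kilobase. Braf adenomas had another order. Mmp7 led at 377 CPM per kilobase in the transgene table, before Pla2g2a at 186, Lyz1 at 82.1, Itln1 at 27.1 and Ang4 at 3.11. The libraries of Mmp7 and Pla2g2a overlapped, as their lowest and highest libraries were 152 and 678 against 136 and 247, and the highest library of Lyz1 (137) just passed the lowest of Pla2g2a. Lyz1, Itln1 and Ang4 did not overlap with each other, with Lyz1 at 42.9 or more and Itln1 at 37.0 or less.

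**Figure D1:**
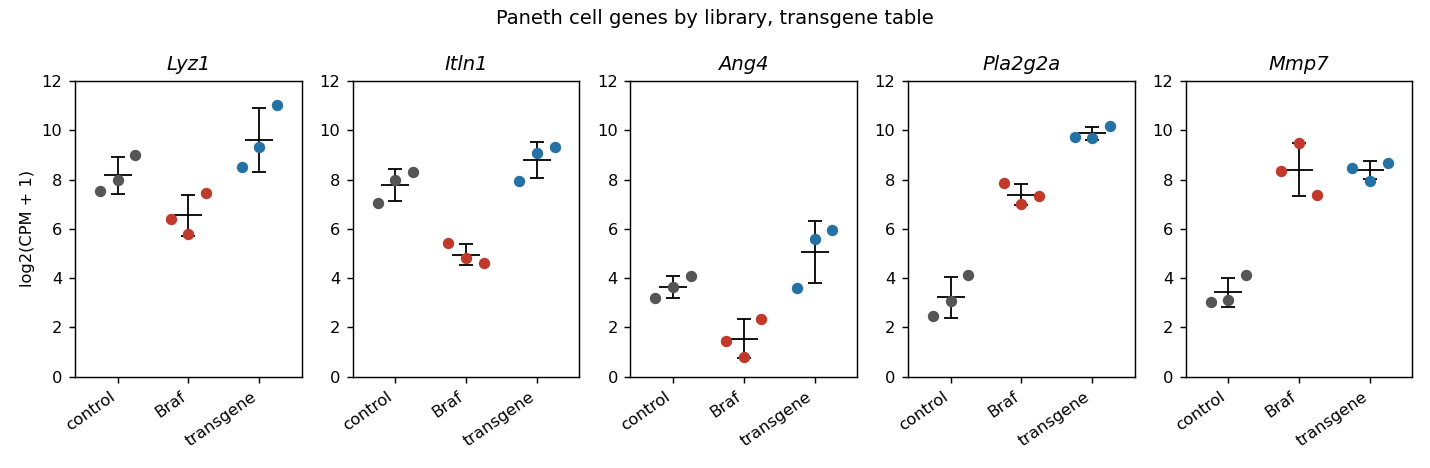
Levels of the 5 genes in the 9 libraries of the transgene table, as log2(CPM + 1), by group; each point is 1 mouse, the long bar is the mean and the whiskers are the SD. Lyz1, Itln1 and Ang4 are lowest in the Braf libraries, while Pla2g2a and Mmp7 are lowest in the controls.

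Braf adenomas were first compared with control epithelium. The active kinase, the tamoxifen and the tumour state differ together here and cannot be told apart. Lyz1, Itln1 and Ang4 were lower in Braf adenomas and Pla2g2a and Mmp7 many-fold higher. Of the 5 genes, 2 rose and 2 fell past the threshold in the transgene table, where 51.1% of all genes were called, 33.1% higher and 18% lower (5020 and 2731 genes, and 3786 and 3819 under TMM rescaling). The libraries of the knockout table had 2 risen and 3 fallen members, against 61.6% of all genes called, 45.3% higher and 16.2% lower (6712 and 2405 genes, and 4260 and 4361 under TMM). These shares are large, so the calls themselves set the members little apart, and the sizes of the differences carry more. All genes tested had a median difference of 0.27 in the transgene table and 0.42 in the knockout table, which TMM rescaling brought to 0.04 and 0.01.

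Lyz1 stood at 185, 254 and 514 CPM in the 3 controls of the transgene table and at 83.4, 54.2 and 174 CPM in the 3 Braf libraries. The groups did not overlap, though Braf 3 lay close to control 1. The difference of -1.64 (95% interval -3.31 to 0.03) was not called, with an adjusted p from limma of 0.0925. It was called under TMM rescaling, with an adjusted p of 0.0364 in limma, and in edgeR on the recovered reads, with 0.0451. In 13 of 20 alternative fits it stayed uncalled. Among the 17 libraries of the knockout table, the 6 controls ranged from 171 over a median of 231 to 319.7 nCPM, and the 5 Braf libraries stood at 145, 96.0, 38.3, 35.4 and 20.1 nCPM. Braf 4 and 5 were the highest of their group and still under every control. Lyz1 fell there by 2.13 on the log2 scale (interval -3.20 to -1.06, adjusted p 0.00178), or 3.53-fold.

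Itln1 stood at 131, 249.9 and 319.8 CPM in the controls and at 42.2, 27.1 and 23.4 CPM in the Braf libraries of the transgene table. No Braf library came near the controls. Itln1 fell by 2.83 (interval -3.82 to -1.84, adjusted p 7.55e-04 in limma), or 7.56-fold. The controls of the knockout table ranged from 101 over a median of 211 to 292 nCPM, and the Braf libraries stood at 84.6, 107, 26.7, 27.7 and 17.2 nCPM. The groups overlapped, since Braf 5 exceeded the lowest control, and Braf 4 and 5 again stood above the other 3. The fall of 2.16 (interval -3.00 to -1.32) had an adjusted p of 1.76e-04 in limma.

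Ang4 stood at 8.08, 11.3 and 16.1 CPM in the controls and 1.76, 0.725 and 4.13 CPM in the Braf libraries of the transgene table. The Braf values rest on 25, 9 and 56 reads, and the groups did not overlap. Ang4 fell by 2.10 (interval -3.50 to -0.69, adjusted p 0.0198 in limma). The call was lost without control 2, control 3, Braf 1 or Braf 2 and with a pseudocount of 5, at adjusted p between 0.0521 and 0.0765. Controls of the knockout table ranged from 10.5 over a median of 13.3 to 17.6 nCPM, and the Braf libraries stood at 2.41, 6.24, 0.530, 0.794 and 0.825 nCPM. Every Braf library was under every control, and Braf 4 and 5 were the highest of their group for Ang4 too. The fall of 2.45 (interval -3.19 to -1.71) had an adjusted p of 7.84e-06 in limma.

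Pla2g2a, the phospholipase, went the other way. It stood at 4.50, 7.32 and 16.5 CPM in the controls and at 229, 126 and 161 CPM in the Braf libraries of the transgene table. Every Braf library was far above every control. Pla2g2a rose by 4.18 (interval 3.29 to 5.07, adjusted p 3.45e-05 in limma), an 18.2-fold ratio of means. Its levels in the knockout table ranged from 3.34 over a median of 7.26 to 12.9 nCPM in the controls, and the Braf libraries stood at 199, 315, 281, 186 and 257 nCPM. The groups were again far apart, with a rise of 4.84 (interval 4.27 to 5.40, adjusted p 1.93e-11 in limma) and a ratio of 30.5.

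Mmp7, the protease, rose with it but varied more among adenomas. It stood at 7.15, 7.71 and 16.2 CPM in the controls and at 321, 724 and 163 CPM in the Braf libraries of the transgene table. The rise of 4.98 (interval 3.77 to 6.19, adjusted p 1.11e-04 in limma) was 38.9-fold. Mmp7 in the knockout table ranged from 3.34 over a median of 8.78 to 12.7 nCPM in the controls, and the Braf libraries stood at 121, 225, 394, 44.2 and 417 nCPM. Braf 7 was lowest and Braf 8 highest, and all 5 were above the controls. Mmp7 rose there by 4.37 (interval 3.17 to 5.57, adjusted p 8.5e-06 in limma).

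**Figure D2:**
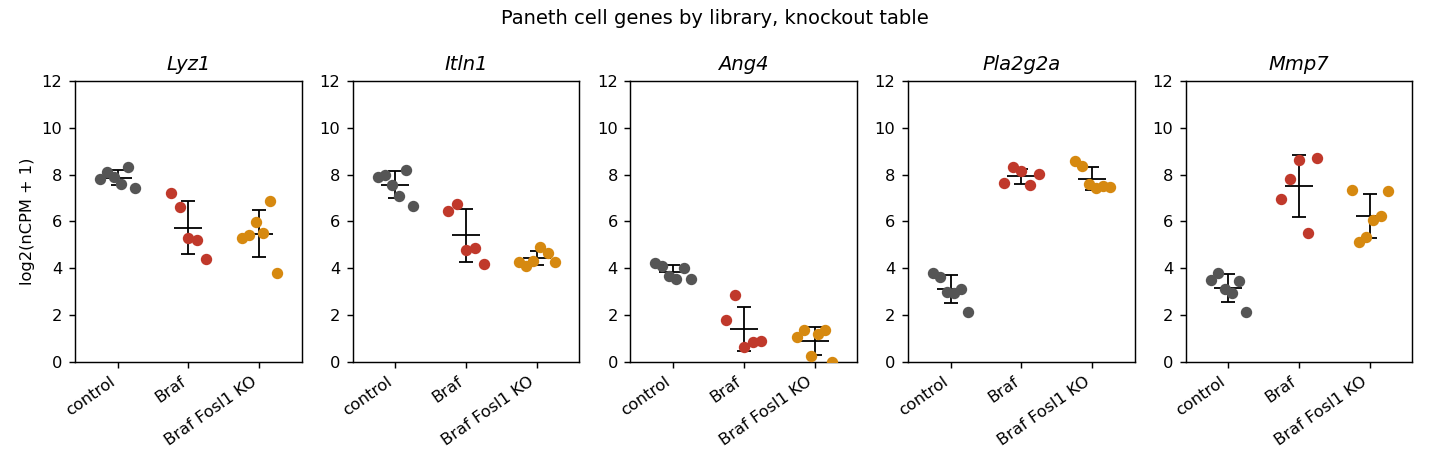
Levels of the 5 genes in the 17 libraries of the knockout table, as log2(nCPM + 1), by group; each point is 1 mouse, the long bar is the mean and the whiskers are the SD. Braf and knockout libraries overlap in all 5 genes, and Braf 4 and 5 are the 2 highest Braf libraries for Lyz1, Itln1 and Ang4.

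Knockout adenomas, where Cre deletes Fosl1 by genotype but its loss was not checked here, were compared for the same 5 genes. Their levels resembled those of Braf adenomas in direction, and 0 of the 5 genes were called between the 2 groups in limma, where 0.419% of all genes were called (0.0473% or 7 genes higher and 0.371% or 55 genes lower, and 10 and 24 under TMM). At an unadjusted p under 0.05 there were 2, Mmp7 and Itln1, both lower. Against controls, 2 rose and 3 fell, where 56.8% of all genes were called, 37.4% higher and 19.4% lower (5535 and 2874 genes, and 4154 and 4413 under TMM). Both comparisons share their libraries with the one above, so the likeness of their directions is no separate evidence.

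Mmp7 in the 6 knockout libraries ranged from 33.3 over a median of 70.2 to 162 nCPM, against 44.2 to 417 nCPM in the Braf libraries. The groups overlapped, and 4 knockout libraries lay between 33.3 and 74.8 nCPM while knockout 1 and 7 were at 162 and 156. Mmp7 differed by -1.29 from the Braf group (interval -2.49 to -0.09), with an unadjusted p of 0.037 and an adjusted p of 0.314 in limma. Itln1 ranged from 16.2 over a median of 18.5 to 29.0 nCPM in the knockout libraries, a narrow band that overlapped with Braf 6, 7 and 8 and lay under Braf 4 and 5. Its difference from the Braf group was -0.98 (interval -1.82 to -0.14), with an unadjusted p of 0.0246 and an adjusted p of 0.271 in limma.

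The other 3 genes had smaller differences from the Braf group on the log2(value + 1) scale. Adding 1 shrinks the differences of Ang4, whose means were near the floor, at 2.16 nCPM with Braf and 0.944 nCPM with the knockout. Ang4 in the knockout libraries was listed at 1.10, 1.57, 0.177, 1.25, 1.57 and 0 nCPM, overlapping with the Braf libraries, and differed by -0.53 (interval -1.27 to 0.22, adjusted p 0.51 in limma). Lyz1 ranged from 12.7 over a median of 43.0 to 116 nCPM and differed by -0.27 (interval -1.34 to 0.80, adjusted p 0.825). Pla2g2a ranged from 172 over a median of 189 to 386 nCPM, with knockout 1 and 2 highest, and differed by -0.10 (interval -0.67 to 0.47, adjusted p 0.88). The intervals of Ang4 and Lyz1 thus include more than a 2-fold lower level with the knockout, and that of Pla2g2a does not. All genes had a median difference of -0.15 in this comparison. Against the controls of the table, Lyz1 fell by 2.39, Itln1 by 3.14 and Ang4 by 2.97, and Pla2g2a rose by 4.73 and Mmp7 by 3.08. The groups did not overlap for any of the 5, nor for 33.2% of all genes tested, and the largest of the 5 adjusted p-values in limma was 5.23e-04, for Lyz1.

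Transgene adenomas, which arose without the Braf allele in the stated genotype, differed from Braf adenomas in 4 of the 5 genes. Lyz1, Itln1, Ang4 and Pla2g2a rose against Braf adenomas and Mmp7 did not differ beyond its spread, where 19.2% of all genes were called, 14.5% higher and 4.72% lower (2202 and 716 genes, and 1674 and 1234 under TMM). Against controls, Pla2g2a and Mmp7 rose past the threshold and the other 3 had higher means without a call, where 64.2% of all genes were called, 46.7% higher and 17.5% lower (7085 and 2658 genes, and 4747 and 4353 under TMM). All genes had a median difference of 0.17 against Braf adenomas and 0.47 against controls.

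Pla2g2a stood at 857, 829.5 and 1164 CPM in the transgene libraries, above each Braf library (126 to 229 CPM) and each control. It rose by 6.66 against controls (interval 5.77 to 7.55, adjusted p 2.57e-06 in limma), a 101-fold ratio of means. Against Braf adenomas Pla2g2a rose by 2.48 (interval 1.59 to 3.38, adjusted p 0.00388). Mmp7 stood at 358, 248 and 404 CPM, inside the range of the Braf libraries. It rose by 4.95 against controls (interval 3.74 to 6.16, adjusted p 9.29e-05 in limma) and differed by -0.03 from Braf adenomas, with an interval of -1.23 to 1.18. The interval allows a difference of about 2-fold in either direction.

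Lyz1 stood at 360, 643 and 2115 CPM in the transgene libraries, and transgene 3 was more than 3 times as high as either of the others. All 3 were above the Braf libraries, while transgene 1 lay within the controls (185 to 514 CPM). Lyz1 rose by 3.08 against Braf adenomas (interval 1.41 to 4.75, adjusted p 0.0227 in limma). The call was lost without Braf 1, Braf 2 or transgene 2, at adjusted p of 0.0731, 0.104 and 0.0666. Against controls Lyz1 differed by 1.44 (interval -0.23 to 3.11, adjusted p 0.113 in limma), which became 2.01 with an adjusted p of 0.0409 without transgene 1. This difference stayed uncalled in 17 of 20 alternative fits.

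Itln1 stood at 247, 545 and 648 CPM, above every Braf library, with transgene 1 inside the range of the controls. It rose by 3.84 against Braf adenomas (interval 2.85 to 4.84, adjusted p 0.00128 in limma), or 15.5-fold. Ang4 stood at 11.2, 46.4 and 61.2 CPM, where transgene 1 again lay among the controls and the other 2 above them. Ang4 rose by 3.51 against Braf adenomas (interval 2.10 to 4.92, adjusted p 0.00593 in limma), or 18.0-fold. Against controls, Itln1 differed by 1.01 (interval 0.02 to 2.01, adjusted p 0.069) and Ang4 by 1.41 (interval 0.01 to 2.82, adjusted p 0.0728). Without transgene 1 the differences were 1.44 and 2.13, with adjusted p of 0.00963 and 0.0028. Itln1 was also called without control 3 (adjusted p 0.0435 in limma), Ang4 with the replicate block (0.024), and both with array weights (0.00607 and 0.00728). Each of the 2 genes stayed uncalled against controls in 17 of 20 alternative fits.

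**Figure D3:**
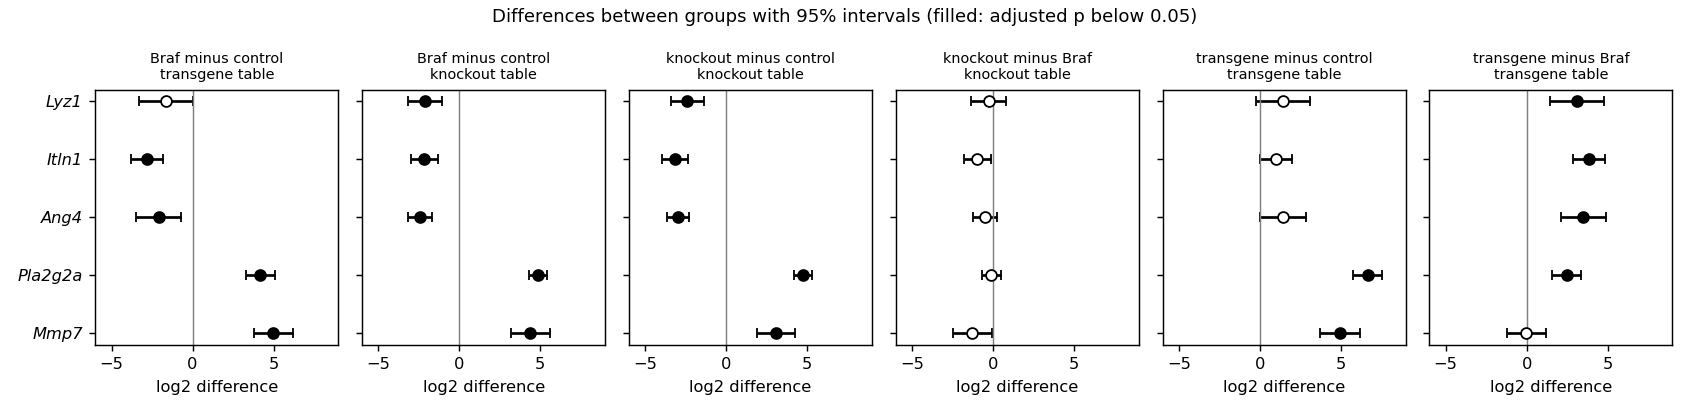
Differences between groups in log2(value + 1) for the 5 genes in the 6 comparisons, with 95% intervals; filled points have an adjusted p below 0.05 in limma. Lyz1, Itln1 and Ang4 lie left of 0 and Pla2g2a and Mmp7 right of 0 for Braf against control in both tables, and no point is filled for knockout against Braf.

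The 5 genes exchanged places in their summed level between control and adenoma. In controls of the transgene table Lyz1, Itln1 and Ang4 together made 96.3 to 97.2% of the summed CPM of the 5 genes, and 95.4 to 97.7% of summed nCPM in controls of the knockout table. In Braf adenomas the same 3 genes made 8.80 to 38.3% and 5.36 to 42.0%, in knockout adenomas 8.50 to 35.4%, and in transgene adenomas 33.7 to 64.3%. The summed level itself lay between 336 and 883 CPM in controls, 525 and 932 CPM with Braf, and 1833 and 4392 CPM with the transgene, where every library was above both other groups. The sums of the knockout table overlapped, at 289 to 644, 294 to 750 and 312 to 604 nCPM in control, Braf and knockout libraries.

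**Figure D4:**
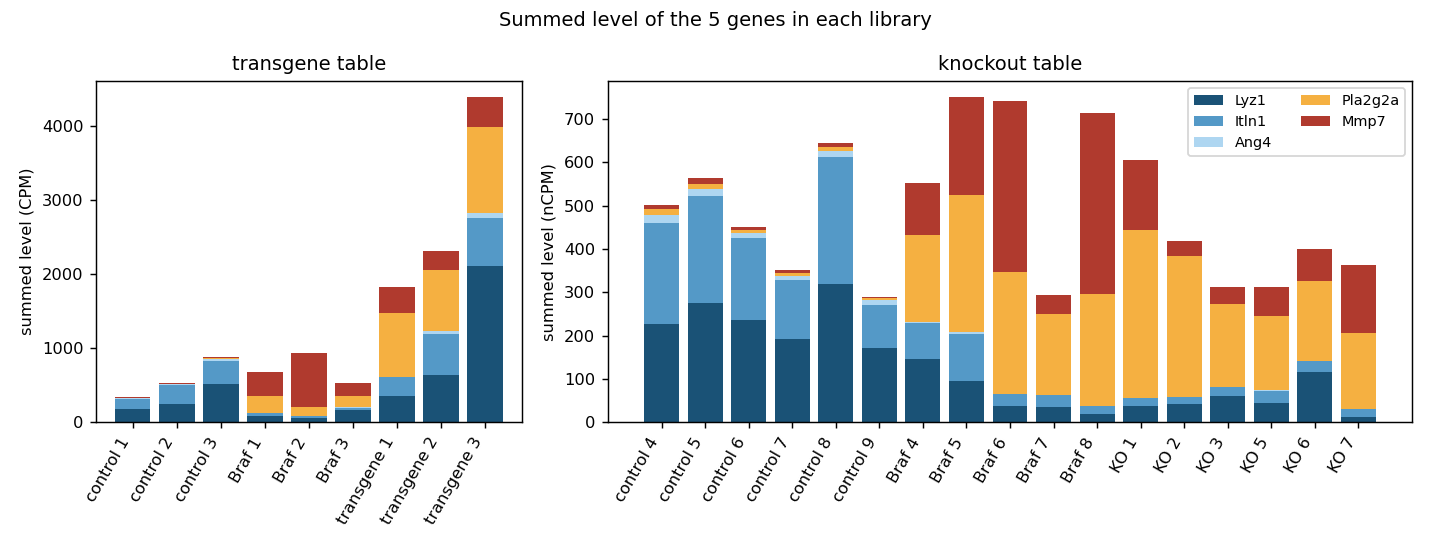
Summed level of the 5 genes in each library, stacked by gene, in CPM (transgene table) and nCPM (knockout table). Lyz1 and Itln1 fill the bars of the controls, Pla2g2a and Mmp7 most of the bars of Braf and knockout adenomas, and both pairs are tall in the transgene libraries.

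Across libraries Lyz1, Itln1 and Ang4 were each among the 3 genes most like the others. Pla2g2a and Mmp7 had a high correlation in both tables, but many other genes were more like each of them. Likeness was measured as the smaller of the 2 Pearson correlations of log2 values, over the 9 libraries of the transgene table and the 17 of the knockout table, among 14187 genes tested in both. It describes libraries that share their group differences. Gene models, with Gm numbers, Rik or accession-like symbols, were left out before ranking, so the ranks are among the other genes. The gene most like Lyz1 was Ang4 (0.897), followed by the alpha-defensin gene Defa17 (0.891) and Itln1 (0.879). For Itln1 the order was Ang4 (0.931), the pentraxin gene Mptx2 (0.906) and Lyz1, and for Ang4 it was Itln1, Lyz1 and Mptx2 (0.896). Pla2g2a was most like the Wnt pathway transcription factor gene Lef1 (0.969), then Cetn2 (0.965) and Csnk1e (0.964), and Mmp7 most like Crybg3 (0.961), Gipc1 (0.950) and Cep72 (0.948). Pla2g2a and Mmp7 had 0.890 between them, which put Mmp7 at rank 423 for Pla2g2a and Pla2g2a at rank 395 for Mmp7. Each had a negative value with Lyz1, Itln1 and Ang4 in the knockout table, between -0.67 and -0.85. The transgene table did not show that opposition, with correlations of 0.333, 0.141 and 0.265 for Pla2g2a and of -0.05, -0.23 and -0.14 for Mmp7 with Lyz1, Itln1 and Ang4.

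Lyz1 and Lyz2 are neighbours of near-identical sequence with different patterns. Lyz2 is the lysozyme gene of macrophages and neutrophils. Their transcripts were identical at 95.8% of 1264 aligned positions, yet only 24 of 1164 stretches of 100 bases in Lyz1, or 2.06%, also occur in Lyz2. For the other 4 genes no such stretch occurred in a transcript of another gene. The windows at the 2 gene starts were identical at 249 of 302 aligned positions, or 82.5%, and are shown with the differing bases in capitals.
Lyz1, chr10:117292819-117293118, minus strand: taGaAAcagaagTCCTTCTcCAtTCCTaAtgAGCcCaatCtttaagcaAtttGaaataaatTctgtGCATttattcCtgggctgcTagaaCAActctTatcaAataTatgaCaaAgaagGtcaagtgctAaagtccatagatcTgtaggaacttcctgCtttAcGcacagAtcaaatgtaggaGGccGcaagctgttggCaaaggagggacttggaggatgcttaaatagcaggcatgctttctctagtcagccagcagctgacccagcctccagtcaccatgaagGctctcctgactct
Lyz2, chr10:117282223-117282522, minus strand: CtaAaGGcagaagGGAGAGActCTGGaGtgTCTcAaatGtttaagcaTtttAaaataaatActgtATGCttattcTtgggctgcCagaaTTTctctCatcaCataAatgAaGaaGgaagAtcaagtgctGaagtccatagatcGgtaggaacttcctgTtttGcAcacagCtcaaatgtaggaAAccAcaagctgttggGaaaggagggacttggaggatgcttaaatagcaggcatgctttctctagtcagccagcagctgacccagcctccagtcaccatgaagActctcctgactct
The differences crowd into the part far from the start, and most bases next to it are the same. Lyz2 stood at 0.858, 10.8 and 1.52 CPM in the controls of the transgene table, at 97.1, 4.83 and 35.4 CPM in the Braf libraries and at 179, 96.0 and 333 CPM in the transgene libraries. The Braf libraries overlapped with the controls and the transgene libraries did not. Lyz2 rose by 5.56 in transgene adenomas against controls (interval 2.90 to 8.23, adjusted p 0.00376 in limma), and by 3.84 in Braf adenomas of the knockout table (interval 2.73 to 4.95, adjusted p 9.26e-06). Lyz2 stood there between 0.437 and 5.06 nCPM in controls, at 30.4, 46.4, 88.0, 47.7 and 43.1 nCPM with Braf, and between 2.34 and 43.7 nCPM with the knockout.

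The ratio of Lyz1 to Lyz2 levels was lower with this. It lay between 23.5 and 339.5 in controls, between 0.859 and 11.2 with Braf, and between 2.01 and 6.70 with the transgene. The knockout table gave ratios between 48.0 and 517 in controls, 0.435 and 4.78 with Braf, and 0.553 and 17.9 with the knockout. No adenoma library reached the lowest control of its table. The summed level of 8 macrophage markers, Lyz2 among them, was higher in the adenomas too. It lay between 12.9 and 41.4 CPM in controls, 96.6 and 338 CPM with Braf, and 293 and 625 CPM with the transgene. With 7 of these markers in the knockout table, it was at most 23.0 nCPM in controls, 141 to 268 nCPM with Braf and 32.7 to 128 nCPM with the knockout. Their part in the lysozyme values was not tested.

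**Figure D5:**
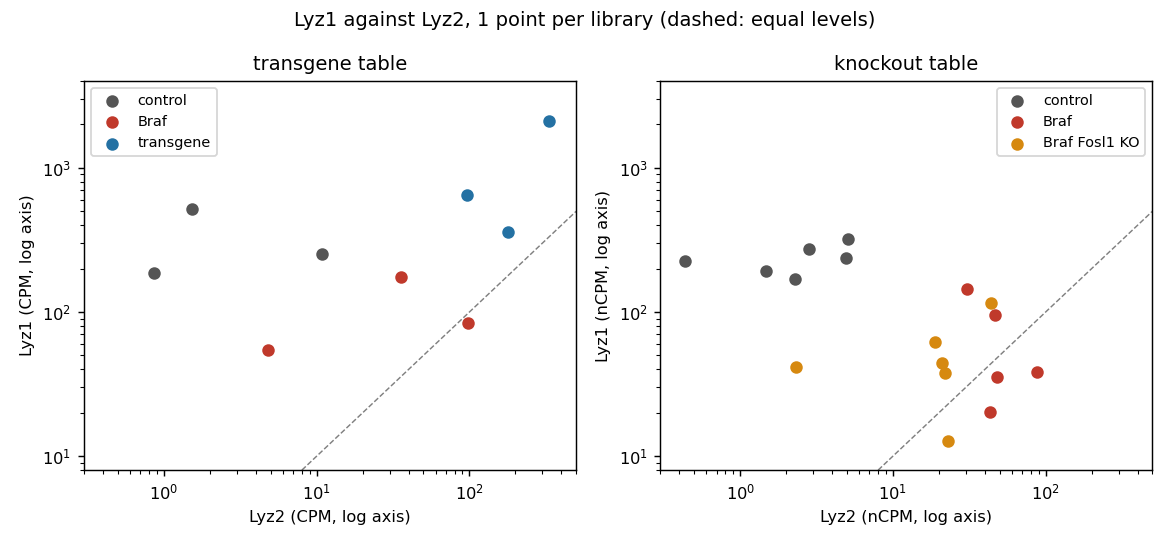
Lyz1 against Lyz2 in each library, in CPM (transgene table) or nCPM (knockout table), both on log axes; each point is 1 mouse and the dashed line marks equal levels. Controls sit at low Lyz2, Braf and knockout adenomas mostly at higher Lyz2 and lower Lyz1, and transgene adenomas at high values of both. Braf 2 of the transgene table (Lyz2 4.83 CPM) and knockout 2 (Lyz2 2.34 nCPM) lie within the Lyz2 range of the controls.

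Other genes of the Paneth cell granule mostly fell in Braf adenomas. The list holds alpha-defensins, the Reg3 lectins, the pentraxins Mptx1 and Mptx2 and further secreted products, 25 of them tested in each table. In Braf adenomas 3 rose and 16 fell in the transgene table, with a median difference of -2.61 beside 0.27 over all genes, and 3 rose and 20 fell in the knockout table, with a median of -2.62 beside 0.42. The 3 that rose in both tables were Cd24a, a surface glycoprotein also found on other crypt cells, Habp2, a secreted protease, and Nupr1, a stress-induced chromatin protein. Habp2 had a mean of 1.84 CPM in controls and 70.8 CPM in Braf adenomas of the transgene table. Reg3a, an antibacterial lectin, had a mean of 145 CPM in controls and 0.0983 CPM in Braf adenomas. Against controls, knockout adenomas had 4 risen and 20 fallen genes of the list (median -3.08 beside 0.27). Against Braf adenomas 0 were called in limma, and 4 were lower at an unadjusted p under 0.05, with a median of -0.11 beside -0.15.

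Alpha-defensins followed Lyz1, Itln1 and Ang4 in Braf adenomas but less fully with the transgene. They are near-identical copies among which reads may be split, so single genes are uncertain. In Braf adenomas 10 of the 15 tested in the transgene table and 14 of 14 in the knockout table fell, and 0 were higher in either table in limma, also at an unadjusted p under 0.05. The 18 genes in the transgene table summed to 464 to 822 CPM in controls and 37.3 to 114 CPM with Braf, and to 168, 227 and 1124 CPM in the transgene libraries. The highest transgene library stood above all controls and the other 2 below them, so the group had no common level. Against controls 4 of 15 fell in the transgene group, among them Defa39, from a mean of 88.8 to 3.22 CPM, while Defa24 differed by -0.18 (interval -1.52 to 1.15). Against Braf adenomas 2 rose, and 6 were higher at an unadjusted p under 0.05. The 15 in the knockout table summed to between 251 and 679.7 nCPM in controls, 13.1 and 116 nCPM with Braf, and 10.8 and 66.2 nCPM with the knockout.

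Over the whole granule list, 3 rose and 6 fell in transgene adenomas against controls (median -0.44 beside 0.47), and 9 rose against Braf adenomas (median 1.82 beside 0.17). In edgeR and DESeq2 on the recovered reads, 7 and 15 rose against Braf adenomas. Mptx2 was listed at 0 CPM in the 3 Braf libraries and had a mean of 21.4 CPM in the transgene libraries. Guca2b, a peptide that acts on guanylate cyclase C, rose by 2.44 against Braf adenomas (interval 1.59 to 3.28, adjusted p 0.00326 in limma) and fell by 5.28 against controls. Reg3a likewise rose by 2.56 against Braf adenomas and fell by 4.44 against controls, where the adjusted p was 1.7e-06. Both were thus still far under the controls.

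Regulators of the Paneth and secretory fate did not move as 1 block. In Braf adenomas 4 rose and 4 fell of 16 tested in the transgene table (median 0.36 beside 0.27), and 8 rose and 2 fell in the knockout table (median 0.86 beside 0.42). TMM rescaling gave 4 and 5, and 7 and 5. Sox9, a transcription factor that Paneth cells need, rose from a mean of 20.4 CPM in controls to 167 CPM in Braf adenomas of the transgene table (difference 2.97, interval 2.65 to 3.29, adjusted p 1.82e-07 in limma). Ephb3, the receptor that holds Paneth cells at the crypt base, rose by 3.38 and Foxa3 by 1.94. Gfi1, a repressor that favours secretory cells, fell by 2.19 (interval -3.03 to -1.34, adjusted p 8.14e-04), and Fzd5, a Wnt receptor used in Paneth cell maturation, fell by 2.02.

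The factors that fell with Braf in that table stood nearer to the controls with the transgene, with Fzd5 as an exception. Gfi1 had means of 6.47, 0.700 and 6.06 CPM in control, Braf and transgene libraries, and rose by 2.02 against Braf adenomas (adjusted p 0.00553 in limma). Atoh1, the master factor of secretory cells, had means of 13.7, 2.16 and 8.35 CPM and rose by 1.51 (adjusted p 0.0216). Fzd5 was lower with the transgene than in Braf adenomas, by 0.65 (adjusted p 0.0264 in limma). Over the list, 9 rose and 1 fell against controls (median 0.74 beside 0.47), which TMM rescaling changed to 6 and 3, and 5 rose and 2 fell against Braf adenomas (median 0.65 beside 0.17). In knockout adenomas 6 rose and 3 fell against controls (median 0.02 beside 0.27; 5 and 5 under TMM), and 0 were called against Braf adenomas in limma (median -0.26 beside -0.15), with 1 higher and 3 lower at an unadjusted p under 0.05.

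Niche signals, which Paneth cells and their neighbours give to stem cells, included genes that rose and genes that fell in every adenoma group against controls. Of the 7 tested in the transgene table, there were 3 that rose and 2 that fell in Braf adenomas (median 1.01 beside 0.27), and 6 rose and 1 fell in transgene adenomas against controls (median 1.60 beside 0.47). The knockout table had 6 tested, of which 4 rose and 2 fell in both Braf and knockout adenomas (medians 1.02 beside 0.42 and 1.14 beside 0.27). Dll1, a Notch ligand, fell by 3.12 in Braf adenomas of the transgene table, and Bmp4, a signal mostly of stromal cells, rose by 4.27. Wnt3, the Wnt ligand that Paneth cells supply, had means of 1.41, 0.365 and 8.69 CPM in control, Braf and transgene libraries, and rose by 2.56 against Braf adenomas (interval 1.49 to 3.62, adjusted p 0.00591 in limma). Against Braf adenomas 2 of these signals rose with the transgene (median 0.59 beside 0.17). With the knockout 0 were called in limma, and 1 was lower at an unadjusted p under 0.05 (median -0.08 beside -0.15).

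Relatives of the members by sequence family rose where any was called against controls. Of 7 tested in the transgene table, which include Lyz2 and phospholipases of group II, 5 rose in Braf adenomas (median 2.85 beside 0.27), and all 7 rose in transgene adenomas (median 2.12 beside 0.47). Of 6 tested in the knockout table, 5 rose in Braf and 4 in knockout adenomas (medians 2.91 beside 0.42 and 2.15 beside 0.27). Pla2g2d rose by 4.16 in Braf adenomas of the transgene table against controls. It was lower by 1.85 in transgene than in Braf adenomas (adjusted p 0.00609 in limma), whereas Pla2g2a was higher in both of these comparisons. Over the family, 2 rose and 2 fell between transgene and Braf adenomas (median -0.36 beside 0.17), and 0 were called between knockout and Braf adenomas in limma, with 1 lower at an unadjusted p under 0.05 (median -0.32 beside -0.15).

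Markers of other cells and of gut position moved between the same groups. Markers of the distal small intestine, 3 in each table, summed to between 247 and 338 CPM in controls, 5.38 and 16.6 CPM with Braf, and 7.81 and 84.1 CPM with the transgene. Distal markers of the knockout table summed to between 1049 and 1934 nCPM in controls, 7.09 and 10.5 nCPM with Braf, and 5.49 and 30.2 nCPM with the knockout. There 3 of 3 fell in both adenoma groups against controls. The summed 5 proximal markers overlapped, at 1063 to 1841, 553 to 3397 and 282 to 1385 CPM in the transgene table, and at 923 to 1721, 1221 to 5210.1 and 1542 to 8641 nCPM in the knockout table. Single proximal markers differed in direction. In Braf adenomas against controls, 2 rose and 2 fell in the transgene table, and 3 rose and 2 fell in the knockout table. Enterocyte markers fell in each adenoma group, 6 of 7 in each comparison with controls. Goblet cell markers summed to between 5917 and 7797 CPM in controls, 914 and 4013 CPM with Braf, and 4198 and 4789 CPM with the transgene. Single goblet markers moved in opposite directions. Of 7 tested, 0 rose and 4 fell in Braf adenomas against controls, and 2 rose and 3 fell in transgene adenomas. Agr2 had means of 197, 659 and 1489 CPM in control, Braf and transgene libraries, and Fcgbp 3085, 603 and 795 CPM. Goblet sums of the knockout table overlapped widely, at 2796 to 7282, 1499 to 13640.4 and 1411 to 8584 nCPM in control, Braf and knockout libraries. Of 7 tested there, 1 rose and 0 fell in either adenoma group against controls. Fibroblast markers summed to 6.59 to 18.3, 18.5 to 170.0 and 615 to 1204 CPM in the same groups of the transgene table, and to 6.85 to 13.6, 70.7 to 509 and 57.0 to 270.4 nCPM in those of the knockout table. The 5 pancreatic acinar markers summed to at most 10.1 CPM in the transgene table. Those of the knockout table summed to at most 0.633 nCPM in controls, with a median of 1.58 and a highest value of 42.8 nCPM with Braf, and a median of 0.442 and a highest value of 73.7 nCPM with the knockout. The part of gut position and of other cells in the levels of the 5 genes was not tested.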

How the data were processed

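Expression per gene was measured by RNA sequencing in 27 libraries, of which 26 were used; 1 library whose title and genotype label disagree was left out. Reads were processed with fastp, STAR and limma on GRCm38, per the submitters' processing notes, and how reads were counted, or whether by strand, is not given in the sources used here. The table with the transgene holds CPM as the authors deposited them. Within 0.02, 100% of its nonzero values were whole numbers of reads, which were recovered. The other table holds, per the file headers, normalised counts, a signal whose column totals are nearly equal, and was multiplied here by 0.159 (nCPM). A further 12 columns of the CPM table matched no sample and were not used. 1 duplicated gene ID was dropped.

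With limma 3.58.1 (R 4.3.3), log2(value + 1) was fitted by 1 mean per group and table (trend and robust variances), for genes with at least 1 CPM or nCPM in at least 3 (transgene table) or 5 (knockout table) libraries, 15173 and 14806 genes. Tests were two-sided with Benjamini-Hochberg adjustment over all of them. Beside it, edgeR 4.0.16 and DESeq2 1.42.0 were run on the recovered reads. edgeR called 7643, 8931 and 2142 genes for Braf minus control, transgene minus control and transgene minus Braf. The fit was tested on simulated data. The members and gene lists were chosen with earlier results of these data known. Named list genes are up to 4 per list and comparison with the smallest adjusted p, members against the list's direction, and Defa24, Mptx2, Atoh1 and Wnt3, which were chosen after their values were seen. Single markers of other cells and of gut position were also named after their values were seen. Alternatives were other pseudocounts, filters and scalings, array weights, a fit of the 2 compared groups alone, the title number as a replicate block and dropping 1 library at a time. Replicates are single mice by title, and precision is limited by their number.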

Additional observations from a re-analysis of the deposited data

How the results depend on the processing

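Of 690 recomputed member differences, 660 kept their direction and their side of the threshold, 16 passed it newly, 8 no longer passed it and 6 changed sign. The 6 had not been called. For transgene against Braf adenomas Mmp7 differed by -0.03, and by -0.55 to 0.53 when 1 library was left out, with 0.53 without Braf 2 and 0.18 without transgene 2. For knockout against Braf adenomas Pla2g2a moved from -0.10 to 0.0644 under TMM and 0.0901 under the median ratio, and Lyz1 from -0.27 to between -0.60 and 0.0968 when 1 library was left out, with 0.0968 without Braf 4 and 0.0718 without knockout 7. Transgene against control had 2 members called, 5 with array weights, and 2 to 5 when 1 library was left out, where 5 came without transgene 1. For the other comparisons, leaving out a library gave 3 to 5 members called for Braf against control and 3 to 4 for transgene against Braf in the transgene table, and 5, 5 and 0 in the knockout table. Over all genes, transgene against Braf called 2918 genes and 1370 to 3056 when 1 library was left out, with 1370 without transgene 3. Knockout against Braf called 62 genes, 25 with a pseudocount of 0.25, 21 with a filter at 5 nCPM, 34 under TMM, 26 under the median ratio and 2 when only these groups were fitted. When 1 library was left out it called 16 to 135, with 16 without Braf 6 or Braf 8 and 135 without Braf 4. The cause was not tested.

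The labels do not say whether the numbers in the titles mark a litter or batch. Deviations of same-numbered libraries correlated between -0.18 and 0.16 in the transgene table, over 0.1 in 3 of 9 pairs. In the knockout table they correlated between -0.16 and 0.37, over 0.1 in 4 of 10. With so few libraries per group, these values cannot decide whether the numbers pair the samples. With the number as a replicate block, members called were 5 for Braf against control, 4 for transgene against control and 4 for transgene against Braf, and 5, 5 and 0 in the knockout table, where 1 gene in all was called between knockout and Braf. Precision is limited by 3 libraries per group in the transgene table, by Ang4 counts down to 9 reads, and by an estimated depth in the knockout table.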
